A study of Mus musculus with 2 samples.

Results

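The genes described here encode the proteins of the mitochondrial ribosome, taken by name: every gene probe whose name in both scanner files began with Mrpl or Mrps and a number. The rule gave 76 genes of the 34792 gene names and unnamed probes on the array, 47 named Mrpl and 29 named Mrps, and it used no measured value. They were represented by 106 probes, of which 101 were tested, and all 76 genes were among the 17104 genes tested. RNA came from pancreatic islets of control mice and of RbΔK7 knock-in mice, whose retinoblastoma protein resists phosphorylation. Each of 2 two-colour Agilent arrays carried 1 control sample labelled with Cy3 and 1 RbΔK7 sample labelled with Cy5, so 2 control and 2 mutant samples were measured as 2 pairs. The arrays are called array 1 and array 2 after the replicate numbers in the labels, and every ratio is mutant over control. Per the labels, islets were freed by collagenase given through the bile duct, and collected manually under a dissecting microscope. The age, sex and strain of the mice were not given in the sources used here.

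Mitochondria keep their own ribosome, which translates the few respiratory chain subunits that mitochondrial DNA encodes. Its RNA is made inside the organelle, but every one of its proteins is encoded in the nucleus, translated in the cytosol and imported. Some of these proteins descend from the bacterial ribosome and others were added in the mitochondrial lineage. Beta cells depend on oxidative phosphorylation to couple glucose to insulin release, and E2F factors, which Rb holds in check, bind promoters of many genes for growth and mitochondrial function. Of the 76 genes, 49 encode large subunit proteins, with 30 that have a bacterial counterpart and 19 specific to mitochondria. A further 26 encode small subunit proteins, 16 with a bacterial counterpart and 10 without. Mrps30 and Mrps18a, named for the small subunit, are placed in the large one in the assembled ribosome, and the protein of the remaining gene, Mrps36, is a component of the 2-oxoglutarate dehydrogenase complex and not of the ribosome.

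Several of these genes share a start region with a neighbour read the other way, and several carry the short motifs of factors known to act on nuclear genes for mitochondria. The start regions shown here, from RefSeq (GRCm38.p6), were chosen because the genes beside them form divergent pairs or have the highest and lowest ratios described later, or hold NRF1 letters close to the start. They are read 5′ to 3′ on the strand of the member named, and capitals mark the motif letters searched for. The motifs were GCATGCGC for NRF1, CCGGAAG for ETS factors such as GABP, AAGATGG for YY1, and TTTCCCGC or TTTGGCGC for E2F, each on both strands. In the Mrpl9 and Mrpl32 sequences a longer run in capitals holds the NRF1 letters on both strands at once, because the motif overlaps its own reverse complement.
The 41 bases between the starts of Mrpl46 and Mrps11 (chr7:78783090-78783130, plus strand) hold none of these letters:
Mrps11: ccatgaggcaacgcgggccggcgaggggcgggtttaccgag
The bases between the starts of Sars2, the mitochondrial seryl-tRNA synthetase gene, and Mrps12 (chr7:28741822-28741967, minus strand) hold 1 E2F motif:
Mrps12: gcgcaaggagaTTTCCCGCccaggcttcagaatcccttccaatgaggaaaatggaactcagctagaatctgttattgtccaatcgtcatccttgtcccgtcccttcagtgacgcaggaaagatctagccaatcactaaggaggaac
The bases between the starts of Twnk, which encodes the mitochondrial DNA helicase, and Mrpl43 (chr19:45006443-45006557, minus strand) hold 2 ETS motifs:
Mrpl43: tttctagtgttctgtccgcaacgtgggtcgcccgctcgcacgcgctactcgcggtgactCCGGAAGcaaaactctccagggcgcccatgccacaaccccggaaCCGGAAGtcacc
The bases between the starts of Psma2, a proteasome subunit gene, and Mrpl32 (chr13:14613038-14613241, minus strand) hold the NRF1 letters at 4 positions, 2 on each strand:
Mrpl32: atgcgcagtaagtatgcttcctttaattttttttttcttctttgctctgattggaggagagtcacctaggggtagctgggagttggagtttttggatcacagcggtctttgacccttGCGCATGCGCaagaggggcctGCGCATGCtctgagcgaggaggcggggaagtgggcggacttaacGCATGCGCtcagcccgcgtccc
The 100 bases before the start of Mrpl52 (chr14:54426809-54426908, plus strand), the member with the lowest mean ratio after loess, hold a YY1 and an ETS motif:
Mrpl52: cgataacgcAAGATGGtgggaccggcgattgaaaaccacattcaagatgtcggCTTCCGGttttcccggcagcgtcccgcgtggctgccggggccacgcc
The 100 bases before the start of Mrps14 (chr1:160195115-160195214, plus strand), the member with the highest mean ratio after loess, hold none of the letters searched for:
Mrps14: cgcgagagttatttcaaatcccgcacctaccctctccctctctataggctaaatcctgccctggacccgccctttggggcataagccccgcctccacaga
The 60 bases before the starts of Mrpl17 (chr7:105811088-105811147, minus strand) and Mrpl9 (chr3:94443276-94443335, plus strand) hold NRF1 letters near the start:
Mrpl17: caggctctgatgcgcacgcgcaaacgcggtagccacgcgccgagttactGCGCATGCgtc
Mrpl9: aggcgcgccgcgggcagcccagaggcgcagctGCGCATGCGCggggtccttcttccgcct

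The mutant sample carried the same dye on both arrays, which shared 1 slide, so for any single probe genotype and dye cannot be told apart. The small number of arrays limits the precision of each value. The mutated gene itself, Rb1, gave 0.48 and 0.14, averaging 0.31 ± 0.24 on the log2 scale (SD, n = 2), at an adjusted p of 0.517 by limma, and whether its probe distinguishes the mutant from the normal transcript was not analysed here. The islet hormone genes were bright in every sample, with Ins2 at a log2 level of 17.55 and 16.99 in controls and of 16.99 and 17.70 in mutants. Markers of other cell types moved between the samples. Summed over the 16 tested acinar genes of 17, the digestive enzymes of the exocrine pancreas, the log2 level was 20.39 and 21.66 in controls and 20.82 and 16.82 in mutants, with median ratios of 0.46 and -5.20. The 8 stromal markers had median ratios of 2.62 and 1.73, with 6 of 8 called higher by limma, and summed log2 levels of 10.88 and 12.96 in controls against 13.41 and 14.85 in mutants. Of the 5 tested duct markers (of 6) 2 were called, with medians of 0.66 and 1.23 and sums of 10.73 and 11.05 against 11.62 and 12.08, and of the 6 endothelial markers 1 was called, with medians of 0.46 and 0.61 and sums from 13.03 to 13.11 over the 4 samples. The 12 markers of beta and other endocrine cells had medians of -0.14 and 0.35, sums of 19.49 and 19.36 in controls and 19.63 and 20.08 in mutants, and 0 calls with 2 at an unadjusted p under 0.05. The 4 tested leukocyte markers (of 6) had medians of 0.03 and 0.28, sums of 11.02 and 10.60 in controls and 10.82 and 10.62 in mutants, and 0 calls, again with 2 at an unadjusted p under 0.05. The part of these cell types in the values of the ribosomal genes was not tested, and in whole islets fewer cells of a type and less RNA per cell cannot be told apart.

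Transcripts of the mitochondrial ribosome differed little between RbΔK7 and control islets once ratios were normalized for brightness by loess. Mean log2 ratios of mutant over control ran from -0.42 for Mrpl52, which is 0.747-fold, to 0.27 for Mrps14, which is 1.21-fold. The extremes depended on the processing: they were -0.52 (Mrpl46) and 0.26 (Mrps14) with an offset of 0, and -0.65 (Mrpl19) and 0.45 (Mrpl35) in the deposited log ratios. With the offset of 50, of the 76 genes 45 had a mean within 0.1 of 0, 65 within 0.2 and 74 within 0.3. Limma called 0 of 76 higher and 0 lower at an adjusted p under 0.05, where 0.438% of all tested genes were called higher and 0.0117% lower. At an unadjusted p under 0.05 there were 2 members, Mrpl52 and Mrpl46, both lower, against 2169 of the 17104 tested genes. These p-values come from these 2 pairs only. Limma draws the spread of each probe towards that of all tested probes, with a prior of 4.90 degrees of freedom beside 1 residual.

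The ratios of the members were narrower than those of genes in general. Their SD over the 76 genes was 0.159 on array 1 and 0.167 on array 2, against 0.304 and 0.501 over all tested genes. The median size of a mean ratio, sign left aside, was 0.07 for the members and 0.14 for all tested genes. This was not particular to them: the SD of the mean ratios was 0.125 for the members and 0.323 for all tested genes. It was 0.104 for cytosolic ribosomal protein genes and 0.146 for nuclear subunits of oxidative phosphorylation. The spread of equally bright genes was not compared. Members were also brighter than most: with the tested genes put in 5 equal classes of brightness, 27 members fell in the brightest and 27 in the next. Each value had a wide interval: the median half-width of a 95% confidence interval was 0.33 for the members, and over all 76 genes the intervals ran from -0.76 to 0.59, that is from 0.59-fold to 1.51-fold. So for a typical member a log2 difference under about 0.33 could not be told from 0 by its own interval. The calls were stricter, since they were adjusted over all tested probes. Mrpl52 and Mrpl46 had intervals that left out 0, yet their limma adjusted p-values were 0.342 and 0.433.

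The 2 arrays leaned in opposite directions. The median ratio of the 76 genes was 0.04 on array 1 and -0.09 on array 2, with 0.02 and 0.03 for all tested genes. On array 1 there were 49 of the 76 above 0, and on array 2 there were 27. Both ratios were above 0 for 17 members, where 33.1% of all tested genes showed this, and both were below 0 for 17 members, where 25.1% did. The remaining 42 genes had opposite signs, 32 of them higher on the first array and lower on the second and 10 the other way. Over the 76 genes the ratios of the 2 arrays had a Pearson correlation of 0.19, given as a description since the genes share samples, slide and dyes. The second pair is also the one whose mutant sample had the low acinar level given earlier, whose part in these ratios was not tested.

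**Figure D1:**
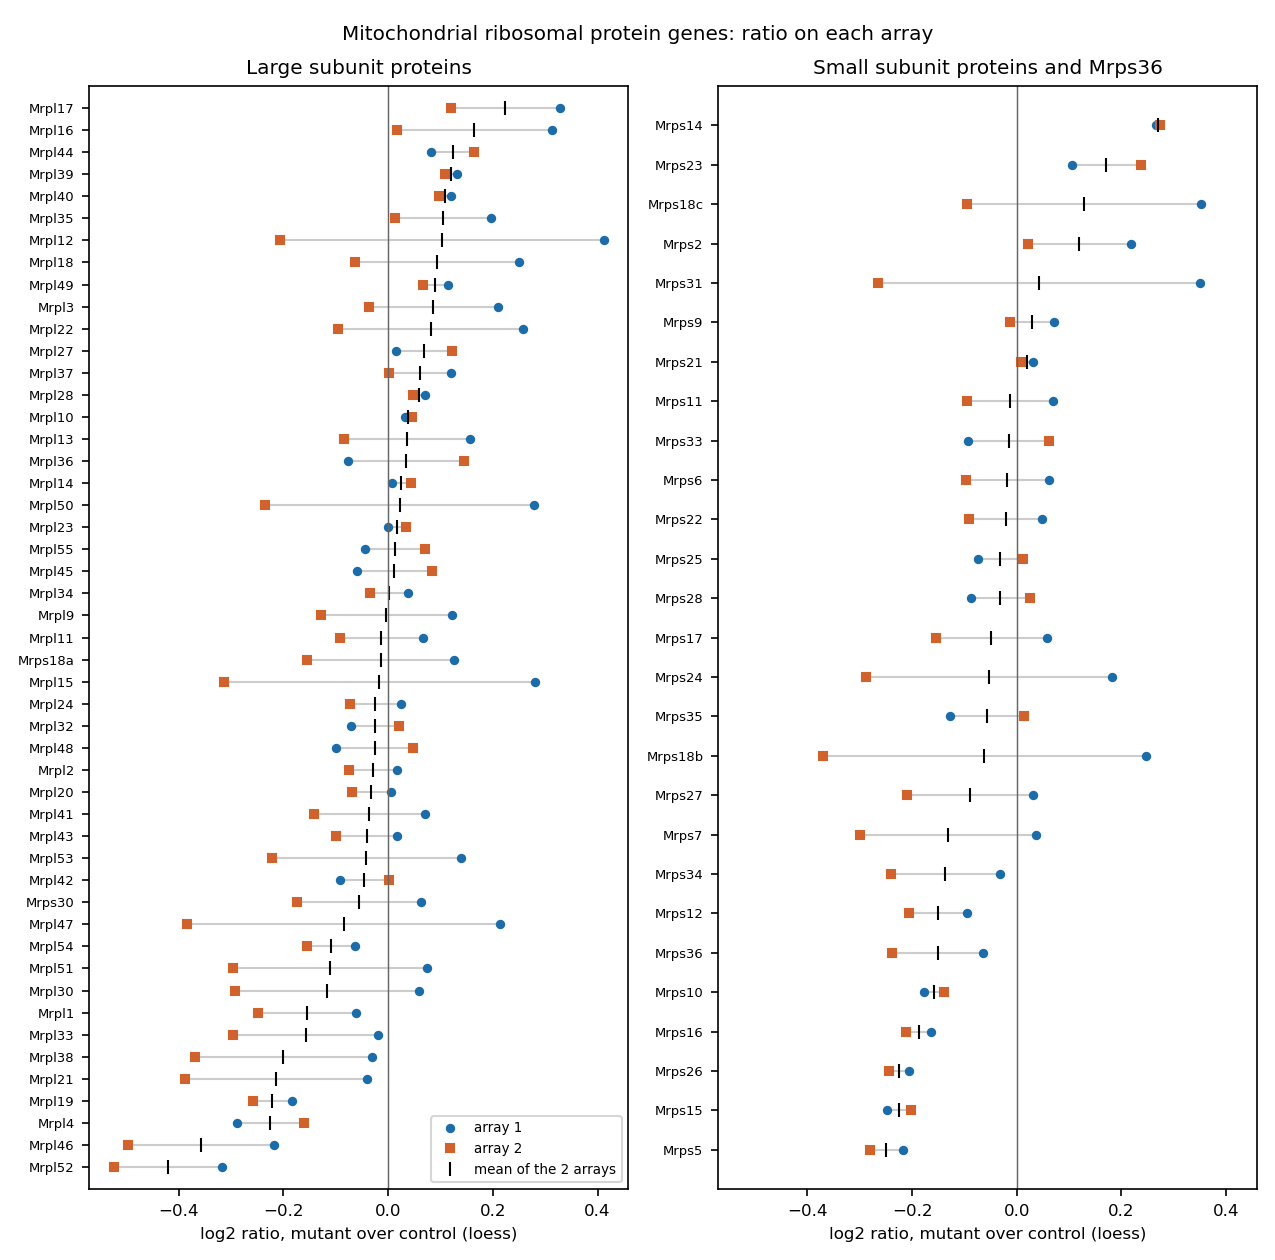
Log2 ratio of mutant over control after loess (horizontal axis) for each of the 76 genes (vertical axis, ordered by mean), with a blue circle for array 1, an orange square for array 2 and a black tick for their mean. Genes of the large subunit are on the left and those of the small subunit with Mrps36 on the right. Means run from -0.42 to 0.27, and 42 of the 76 genes have their 2 points on opposite sides of 0.

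A log2 level is the normalized brightness of a probe in 1 sample and is compared only between samples, not between probes. Both mutant samples were above both controls for 10 of the 76 genes, where 22.7% of all tested genes showed this, and both were below for 13, where 15.3% did. For the other 53 genes the groups overlapped. The 2 control samples of a gene lay a median of 0.13 apart and the 2 mutant samples a median of 0.10. The median size of a mean ratio was 0.07. A mean of 2 ratios, often of opposite sign, tends to be smaller than a single gap, so these sizes cannot be ranked.

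With the offset of 50 the lowest of the large subunit genes was Mrpl52, whose product is a mitochondria-specific protein of that subunit. Its log2 level was 10.77 and 10.99 in controls and 10.45 and 10.47 in mutants. Both mutants lay below both controls, and the mutants were 0.02 apart. The ratios of -0.32 and -0.52 gave a mean of -0.42 ± 0.15 (SD, n = 2), with an interval from -0.76 to -0.08. Limma gave an unadjusted p of 0.0233 and an adjusted p of 0.342. Its probe lies on chromosome 14 from 55048507 to 55048566 (mm9), and its start region is the one shown earlier with an ETS and a YY1 motif. With the arrays centred on their medians in place of loess, its mean was 0.46, so even the direction depended on the normalization. With an offset of 0 it was -0.45, above Mrpl46 at -0.52, and in the deposited log ratios it was -0.42, above Mrpl19 at -0.65 and Mrpl46 at -0.53.

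Mrpl46, a mitochondria-specific large subunit protein with a Nudix-like fold, came next. Its log2 level was 7.80 and 7.96 in the controls and 7.58 and 7.46 in the mutants, with no overlap. The ratios of -0.22 and -0.50 gave a mean of -0.36 ± 0.20 (SD, n = 2), and the mean was 0.25 with median centring. Limma gave an unadjusted p of 0.0477 and an adjusted p of 0.433. Mrps11, a small subunit protein of the platform, starts 42 bases away on the other strand and gave 0.07 and -0.10. The samples of Mrps11 overlapped, with levels of 7.73 and 7.71 in the controls and 7.80 and 7.62 in the mutants. So Mrpl46 and its closest divergent neighbour, itself a member, did not have like values, and their difference was not tested.

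Mrpl4, Mrpl19, Mrpl21 and Mrpl38 completed the large subunit genes among the 10 lowest with 1 sign on both arrays. Mrpl4, whose bacterial counterpart lines the exit tunnel, had levels of 11.19 and 11.16 in the controls and 10.90 and 10.99 in the mutants, a mean ratio of -0.23 ± 0.09 (SD, n = 2). Its second probe gave a mean of 0.02, so the lower value came from 1 of 2 probes. Mrpl19, a dim member, had ratios of -0.18 and -0.26, and its mean of -0.22 became -0.40 with an offset of 0 and -0.65 in the deposited log ratios. By contrast Mrpl21 (-0.04 and -0.39) and Mrpl38 (-0.03 and -0.37) were lower almost wholly on the second array. Their limma adjusted p-values ran from 0.607 to 0.686, and each of the 4 means was above 0 with median centring.

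On the other side, Mrpl17, which lies near the tunnel exit, was the highest of the large subunit. Its levels were 8.87 and 9.07 in the controls and 9.20 and 9.19 in the mutants, and the mutants were 0.01 apart. The ratios were 0.33 and 0.12, and averaged 0.22 ± 0.15 (SD, n = 2), which limma did not call (adjusted p = 0.62). Mrpl16, whose bacterial counterpart helps to place transfer RNA, had 0.31 and 0.02, so its mean of 0.16 came almost wholly from the first array. Mrpl44, an RNase III-like protein, and Mrpl39, which resembles part of a tRNA synthetase, had 0.08 and 0.16, and 0.13 and 0.11. Mrpl40 had 0.12 and 0.10, and Mrpl49 had 0.11 and 0.07. The second tested probe of Mrpl40 gave a mean of -0.08. Limma's adjusted p was 0.743 or more for these 5 genes, and the mean interval of each held 0. With median centring limma called all 5 higher, with adjusted p-values from 0.0236 to 0.0456, and Mrpl17 as well (adjusted p = 0.0171). By that setting 33.4% of all tested genes were called higher.

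Stalk proteins, which recruit translation factors to the large subunit, had values on both sides of 0. Mrpl12, which binds the mitochondrial RNA polymerase as well as forming the stalk, was the member whose arrays differed most. Its level was 9.27 and 9.65 in the controls and 9.68 and 9.45 in the mutants, so the order of the genotypes turned between the pairs. The ratios were 0.41 and -0.21. Mrpl10, which anchors the stalk, had 0.03 and 0.05, and Mrpl11, at its base, had 0.07 and -0.09. Around the exit tunnel Mrpl22, Mrpl23 and Mrpl24 had means of 0.08, 0.02 and -0.02, and Mrpl45, which ties the ribosome to the inner membrane, had a mean of 0.01 with ratios of -0.06 and 0.08. Mrpl47, another protein near the exit, had 0.21 and -0.38 and was the fourth of the members whose arrays differed most.

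In the small subunit the highest gene was Mrps14, a protein of the head. Its levels were 9.11 and 9.08 in the controls and 9.37 and 9.35 in the mutants. Both mutants lay above both controls, with the controls 0.03 and the mutants 0.02 apart. Mrps14 was named for its high mean, so this gap comes from the values that picked it. The ratios of 0.27 and 0.27 gave a mean of 0.27 ± 0.01 (SD, n = 2), with an interval from -0.05 to 0.59 and a limma adjusted p of 0.523. With median centring the mean was 1.08 and was called (adjusted p = 0.0126). Its probe lies on chromosome 1 from 162129889 to 162129948 (mm9). A second tested probe of Mrps14 was not well above background in either control sample, so it gave no usable check of the first.

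Mrps23, a mitochondria-specific protein, had levels of 10.66 and 10.51 in the controls and 10.77 and 10.74 in the mutants, and ratios of 0.11 and 0.24 (limma adjusted p = 0.702, and 0.0146 with median centring). Its other tested probe gave a mean of 0.10. Both mutants were above both controls, by less than the 0.16 between the controls. Mrps2, whose bacterial counterpart sits between head and body, had 0.22 and 0.02, and its second probe was not well above background in 1 control sample.

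Mrps5, Mrps15, Mrps26 and Mrps16 were the lowest of the small subunit. Mrps5, a protein at the entry of the messenger channel, had levels of 7.10 and 7.06 in the controls and 6.88 and 6.78 in the mutants. Its ratios of -0.22 and -0.28 gave a mean of -0.25 ± 0.04 (SD, n = 2), at an adjusted p of 0.558 by limma. The mean of Mrps5 was -0.46 with an offset of 0 and -0.54 in the deposited log ratios. Mrps15 had -0.25 and -0.20, Mrps26 had -0.21 and -0.24, and Mrps16 had -0.16 and -0.21. These 4 genes had like values on both arrays, with SDs of 0.03 to 0.04, and for the first 3 of them the mutants lay below both controls. None of the 4 was called by limma, with adjusted p-values from 0.558 to 0.667, and all 4 means were above 0 with median centring.

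**Figure D2:**
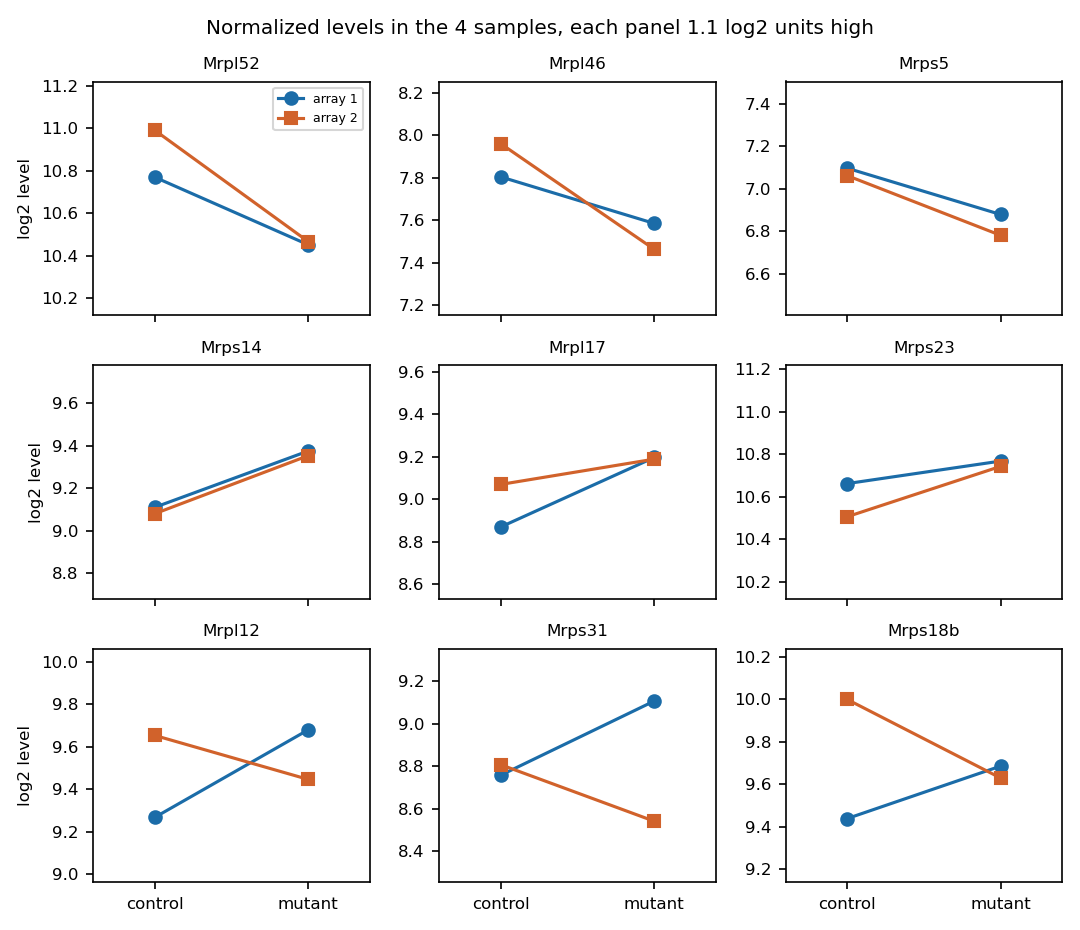
Normalized log2 level (vertical axis, a window of the same height in each panel) in the control and mutant samples (horizontal axis) for 9 members, with blue circles for array 1, orange squares for array 2 and a line joining the 2 samples of an array. The top row shows 3 members below in both mutants, the middle row 3 above in both, and the bottom row Mrpl12, Mrps31 and Mrps18b, whose lines cross or slope in opposite directions.

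Mrps12, whose bacterial counterpart monitors codon pairing, had levels of 10.17 and 10.31 in the controls and 10.07 and 10.11 in the mutants. Its ratios were -0.10 and -0.21 (limma adjusted p = 0.745). Sars2, which starts 147 bases from it on the other strand, had 0.35 and 0.18 and was the highest of the mitochondrial tRNA synthetases (limma adjusted p = 0.543). After loess the 2 genes of this pair thus lay on opposite sides of 0 on both arrays, and neither passed the test. With median centring both were above 0 on both arrays, at 0.50 and 0.93 for Mrps12 and 0.73 and 0.97 for Sars2. By that setting limma called Sars2 higher (adjusted p = 0.0401) and not Mrps12 (adjusted p = 0.0757), where 33.4% of all tested genes were. Mrps18b and Mrps31, both mitochondria-specific, were the other small subunit genes whose arrays differed most. Mrps18b had 0.25 and -0.37, and Mrps31 had 0.35 and -0.27. Control levels of Mrps18b were 9.44 and 10.00 with mutants at 9.69 and 9.63, whereas for Mrps31 the controls were alike at 8.76 and 8.81 and the mutants were apart at 9.11 and 8.54.

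By subunit and by ancestry the members had close medians. Median ratios on the 2 arrays were 0.06 and -0.07 for the 49 large subunit genes and 0.03 and -0.12 for the 26 small subunit genes. They were 0.04 and -0.09 for the 46 genes with a bacterial counterpart and 0.05 and -0.14 for the 29 mitochondria-specific ones. Both ratios were above 0 for 13 large subunit genes and below 0 for 9, and for 4 and 7 small subunit genes. Over all tested genes 33.1% were above 0 on both arrays and 25.1% below. Mrps36, the gene outside the ribosome, had -0.06 and -0.24. No test was made between these groups, since their genes share the same 4 samples.

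Where a gene had more than 1 probe, the probes differed by about as much as the members differ from 0. In 20 genes with several probes well above background in all 4 samples, the range of the mean ratios had a median of 0.10, and in 5 of them the probes lay on opposite sides of 0. The widest was Mrps7 (-0.13 and 0.15), followed by Mrpl41 (-0.29 and -0.04) and Mrpl4. Over all 23 genes with several tested probes the median was 0.11 and 7 had probes on opposite sides, and the widest range, 0.30 for Mrps14, rests on the near-background probe. The brightest probe stood for the gene. The 5 probes that were not tested were further probes of Mrps14, Mrpl9, Mrpl39, Mrpl21 and Mrpl47. The probe standing for Mrpl30 is placed on chromosome 11 from 3370827 to 3370886 (mm9) and its other probe on chromosome 1, and the means were -0.12 and -0.08. Which locus the value of Mrpl30 reports was not tested. The probes of Mrpl34, Mrps35 and Mrpl50 were spotted 10 times each, and their SD over spots was 0.05 to 0.14 on an array. Mrpl50 had 0.28 ± 0.12 on the first array and -0.23 ± 0.07 on the second (SD over 10 spots), so the change of sign between the arrays was larger than the spread between spots.

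The brightest members were Mrpl33, Mrps33, Mrps21 and Mrpl20. Mrps21 had 0.03 and 0.01, Mrpl20 0.01 and -0.07, Mrps33 -0.09 and 0.06, and Mrpl33 -0.02 and -0.30. The dimmest were Mrps27, Mrpl35, Mrps5 and Mrpl19. Mrps27 had 0.03 and -0.21, and Mrpl35 had 0.20 and 0.01. Mrpl35 was not well above background in 1 control sample, and its mean of 0.11 was 0.21 with an offset of 0 and 0.45 in the deposited log ratios. Of the 106 probes 96 were well above background in all 4 samples, so few of the members' values rest on signal near background. The added offset draws ratios of the dimmest ones towards 0.

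Without the intensity-dependent step nearly all members were higher in the mutant channel. With each array centred on its median in place of loess, the members' median ratios were 0.57 and 0.94, and those of all tested genes were 0.42 and 0.89. By this setting both ratios were above 0 for 75 of 76, where 88.5% of all tested genes showed this, and both below 0 for 0 of 76, where 0.772% did. The exception, Mrps5, had -0.0034 on array 1 and 0.25 on array 2. Limma called 32 of 76 higher and 0 lower, where 33.4% of all tested genes were called higher, in place of 0 and 0 with loess. Members were brighter than most genes, and beside equally bright genes, given next, their share of calls was no higher. Called members had mean ratios from 0.81 to 1.08, and the smallest adjusted p was 0.0126, for Mrps14.

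The shift was larger for brighter genes. In the dimmest of the 5 classes the median-centred medians of all tested genes were 0.14 and 0.34, and in the brightest 0.65 and 1.15. In the next to brightest class, 27 members had medians of 0.67 and 1.00, where all genes had 0.56 and 1.11, and 14 of the 27 were called where 53.2% of all genes were. In the brightest class another 27 members had 0.61 and 1.04, and 16 of them were called where 66.7% of all genes were. In the middle class 15 members had 0.49 and 0.78, beside 0.47 and 0.95, with 2 called where 32.6% were. The 5 members of the class below had 0.22 and 0.35, beside 0.29 and 0.69, and the 2 members of the dimmest had 0.27 and 0.36. In these 2 classes 0 members were called, where 12.7% and 1.72% of all genes were. On array 2 the members' median minus that of equally bright genes ran from -0.34 to -0.10 in the 4 brighter classes and was 0.03 in the dimmest. On array 1 it went both ways, at 0.13, -0.07, 0.02, 0.11 and -0.04 from the dimmest class to the brightest. A dye effect and a difference in RNA cannot be told apart in the shift that loess takes out.

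**Figure D3:**
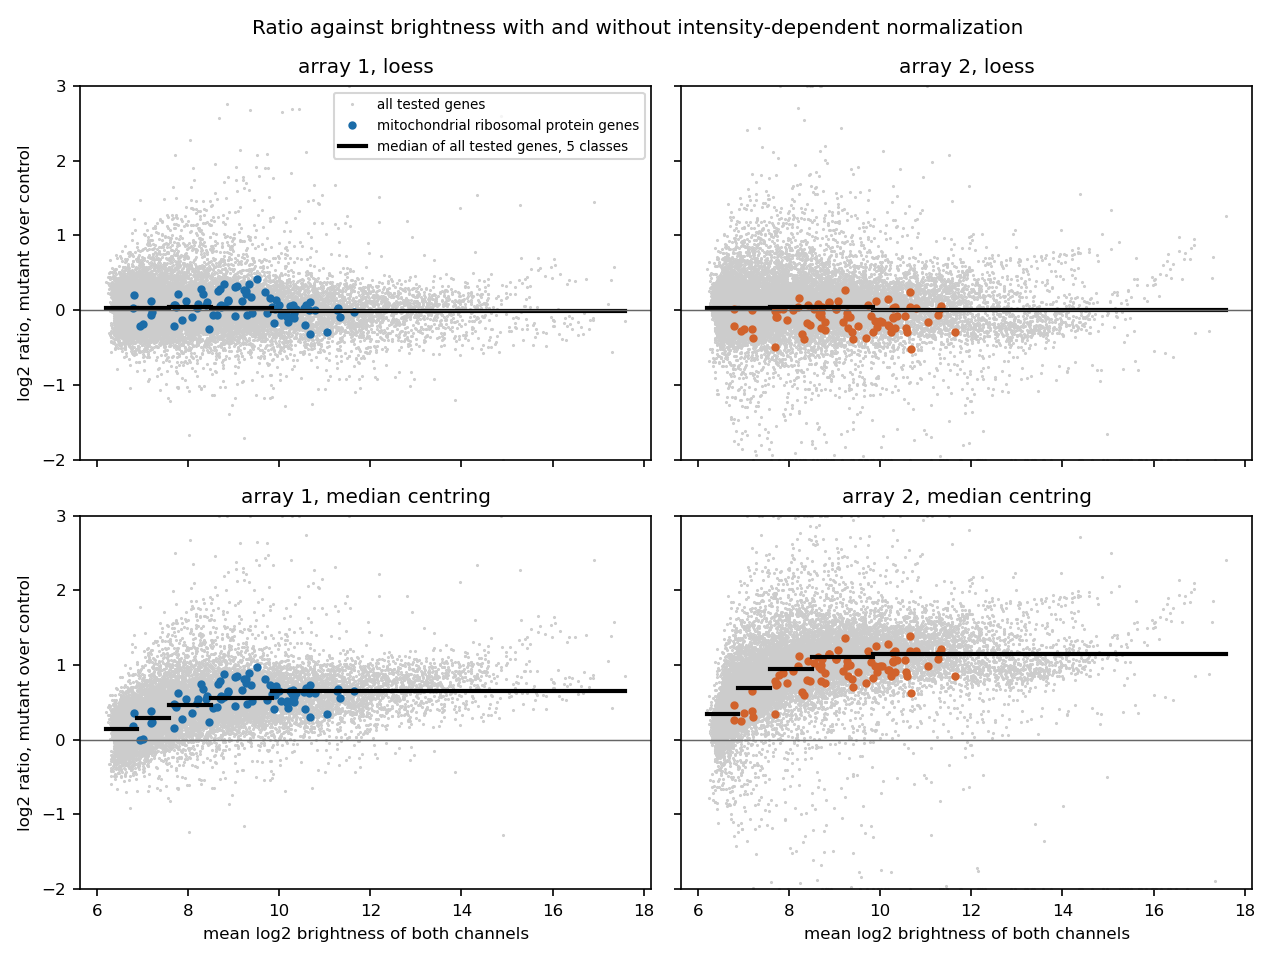
Log2 ratio of mutant over control (vertical axis, values of other genes beyond -2 and 3 drawn at the edge) against the mean log2 brightness of both channels (horizontal axis) for all tested genes (grey) and the 76 members (coloured), on array 1 (left) and array 2 (right), after loess (top) and with median centring (bottom). Black bars are medians of all tested genes in 5 classes of brightness. With median centring they climb from 0.14 to 0.65 on array 1 and from 0.34 to 1.15 on array 2, and the members climb with them.

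Ribosomal proteins of the mitochondrion whose names fall outside the pattern mostly had ratios below 0. Of 7 such genes 5 were below 0 on both arrays and 0 above it on both, where 25.1% and 33.1% of all tested genes were. The medians were -0.13 on each array, and limma called 0 (0 also at an unadjusted p under 0.05). Dap3, a GTP-binding protein of the small subunit, had levels of 11.06 and 11.05 in the controls and 10.81 and 10.91 in the mutants. Aurkaip1, another small subunit protein, was the lowest with -0.30 and -0.17 (limma adjusted p = 0.59). Gadd45gip1, a large subunit protein, was the highest, with -0.07 on the first array and 0.81 on the second, and its second control sample stood low at 9.06 against 10.06 in the first. With median centring all 7 were above 0 on both arrays, where 88.5% of all tested genes were. Limma then called 2 higher, Chchd1 (adjusted p = 0.0383) and Gadd45gip1 (adjusted p = 0.00515), where 33.4% of all tested genes were called.

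After loess, factors that serve the ribosome had no call. Beside the counts of signs given next, 33.1% of all tested genes were above 0 on both arrays and 25.1% below. Of 16 tested mitochondrial translation factors (of 18) 5 were above 0 on both arrays and 4 below it, with medians of 0.07 and -0.06. Tufm, the elongation factor that brings transfer RNA, had 0.12 and -0.20, Mtif2, an initiation factor, had -0.35 and -0.06, and Lrpprc, a messenger RNA stabilizer, had 0.03 and 0.48. Of 15 tested tRNA synthetases (of 17) 4 were above 0 on both and 4 below, with medians of -0.07 and 0.03, from Fars2 at a mean of -0.24 to Sars2 at 0.27. Of 20 assembly and RNA modification factors (of 21) 3 were above 0 on both and 6 below, with medians of -0.03 and -0.02, from Mrm3 at -0.30 to Mrm1 at 0.23, both methyltransferases of the ribosomal RNA. Limma called 0 in each of these 3 lists, with 0 at an unadjusted p under 0.05. With median centring it called 4 translation factors higher, among them Lrpprc (adjusted p = 0.00921), 1 synthetase, Sars2 (adjusted p = 0.0401), and 2 assembly factors, among them Mrm1 (adjusted p = 0.0195). Over all tested genes 33.4% were called higher by that setting.

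Upstream of the ribosome, 10 genes of mitochondrial DNA replication and transcription (of 11) had medians of 0.03 and 0.02, from Polg, the DNA polymerase, at -0.09 to Mterf2 at 0.24. Tfam, which packs mitochondrial DNA, had -0.17 and 0.04, and Polrmt, the RNA polymerase, had 0.14 and -0.13. Among 8 tested regulators of mitochondrial biogenesis (of 9), Ppargc1a, a coactivator, was the highest, with 0.21 and 0.16, and the related Pprc1 the lowest, with -0.15 and -0.39. Nrf1 had 0.08 and -0.04, Gabpa, the DNA-binding subunit of GABP, had 0.14 and 0.13, and Esrra had 0.04 and -0.01. Myc, a driver of ribosome synthesis, had 0.31 and -0.42. In both lists limma called 0 after loess, with 0 at an unadjusted p under 0.05. With median centring it called 1 gene higher in each, Ssbp1, which binds single-stranded mitochondrial DNA (adjusted p = 0.021), and Esrra (adjusted p = 0.0489). Over all tested genes 33.4% were called higher by that setting.

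The lists most like the members gave values on the same scale. Of 78 tested cytosolic ribosomal protein genes (of 79) 59 were above 0 on the first array and 11 on the second, with medians of 0.10 and -0.16, so they leaned with the array as the members did. Of these 10 were above 0 on both arrays and 18 below, where 33.1% and 25.1% of all tested genes were. Their means ran from Rpl12 at -0.27 to Rpl23 at 0.26, and limma called 0 (0 at an unadjusted p under 0.05). Of 74 nuclear subunits of oxidative phosphorylation (of 75), the complexes whose remaining subunits the mitochondrial ribosome makes, 27 were above 0 on the first array and 37 on the second, with medians of -0.05 and 0.00. Limma called 0 of them, with 2 at an unadjusted p under 0.05, and the highest was Ndufc2, an accessory subunit of complex I, at a mean of 0.39 (limma adjusted p = 0.404). With median centring 68 of the 78 cytosolic genes and 55 of the 74 respiratory genes were called higher, beside 32 of the 76 members. The share was 33.4% over all tested genes and 66.7% in the brightest of the 5 classes. These 2 lists were brighter than the members, with median log2 brightness of 13.7 and 11.7 against 9.25. The part of brightness in these counts was not tested.

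**Figure D4:**
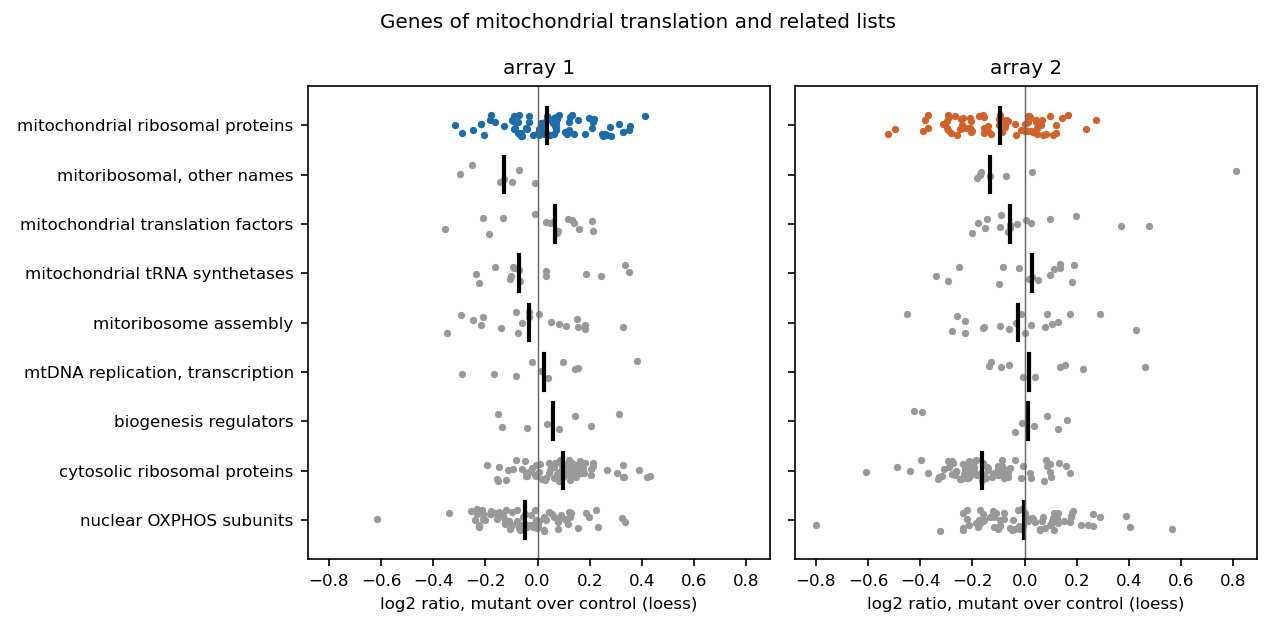
Log2 ratio of mutant over control after loess (horizontal axis) for the tested genes of 9 lists (vertical axis, scattered at random within a list so that points can be seen), on array 1 (left) and array 2 (right), with a black bar at each list's median. The medians of the mitochondrial ribosomal proteins are 0.04 and -0.09, and those of the cytosolic ones 0.10 and -0.16.

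Promoter letters were counted in the 250 bases before the start of 67 members that matched an entry by symbol. NRF1 letters were found in 8 (11.9%), where 2.56% of 27025 genes with an entry and 4.84% of 10192 tested genes held them. ETS letters were found in 17 (25.4%), beside 7.83% and 14.7%, YY1 letters in 6 (8.96%), beside 5.18% and 5.04%, and E2F letters in 2 (2.99%), beside 1.51% and 2.66%. The 2 with E2F letters were Mrps12, 135 bases before the start, and Mrps23, 202 bases before it, and their means were on opposite sides of 0, at -0.15 and 0.17. The 8 genes with NRF1 letters, among them Mrpl17, Mrpl9 and Mrpl32, had median ratios of 0.13 and -0.04 and means from -0.16 to 0.22, and the 17 with ETS letters had medians of 0.05 and -0.10 and means from -0.42 to 0.22. A match is a description of these letters in this window, not a bound site, and a window without them says nothing about a factor.

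Within 300 bases of their start, 20 members had a gene starting on the other strand. For 16 of them the neighbour was no member and was tested. After loess limma called 0 of the 16 (0 of the 20 members beside them), where 0.438% of all tested genes were called higher and 0.0117% lower. The ratios that follow are those after loess. Mrpl18 and Tcp1, a chaperonin subunit gene 238 bases away, had like ratios on both arrays, with 0.25 and -0.06 for the member and 0.28 and -0.10 for the neighbour. Mrpl43 and Twnk gave 0.02 and -0.10, and -0.02 and -0.01. Mrpl32 and Psma2 gave -0.07 and 0.02, and 0.15 and 0.08. Mrpl40 and Hira, a histone chaperone gene 113 bases away, lay on opposite sides on both arrays, with 0.12 and 0.10 against -0.19 and -0.13. After loess no gene of these pairs was called by limma, and the pairs were named after their values were seen. With median centring limma called Mrpl18, Mrpl40 and Mrpl43 higher (adjusted p = 0.039, 0.033 and 0.0447) but not Mrpl32 (adjusted p = 0.0721). By that setting 33.4% of all tested genes were called higher.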

How the data were processed

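Control and RbΔK7 islet RNA was hybridised to 2 two-colour arrays. The submitters' processing notes name Agilent Feature Extraction 10.7.3.1 as the image software, and the headers place probes on mm9. For each spot and colour the authors deposited an intensity, as the mean over its pixels, and a median for the surrounding background, per the file headers. The deposited log10 ratios are red (mutant) over green (control) signals after the software's background correction and dye normalization, per the file headers, and the authors' value table repeats them (largest difference 0; column medians 0 and 0).

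With limma 3.58.1 in R 4.3.3, backgrounds were corrected by normexp (offset 50, which draws dim ratios towards 0). Log2 ratios were normalized by loess (span 0.3), which takes most probes to be alike in both channels. Control and outlier spots were left out and spots of 1 probe averaged. A probe was tested when well above background in either channel on both arrays. The 2 within-array ratios were tested against 0 by limma's moderated test (lmFit, eBayes; two-sided), and p-values were adjusted by Benjamini-Hochberg across 22266 probes, with a threshold of 0.05 (1 residual degree of freedom per probe plus a prior of 4.90). This step was tested on simulated data. Levels per sample came from the loess values after quantile normalization of brightness between arrays.

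The brightest tested probe stood for a gene. Promoter entries matched 67 of 76 members by symbol in RefSeq tables of GRCm38.p6, whose coordinates were not converted to mm9. Exon and UTR positions of probes were not analysed here. Members named were those called, the 10 highest and the 10 lowest with 1 sign on both arrays, the 4 whose arrays differed most, and the 4 brightest and dimmest, and in other lists the extremes and known regulators, of which 1 is not reported here. Other members were named by role or after their values were seen. Members and lists were chosen with earlier results of these data known. Alternatives covered the normalization, offset, filter, prior, probe rule, pairing and each array alone.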

Additional observations from a re-analysis of the deposited data

How the results depend on the processing

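With median centring the members' median log2 ratio was 0.77, with both ratios above 0 for 75 genes and both below 0 for 0, and limma called 32 higher. The means of Mrpl52 (0.46), Mrpl46 (0.25), Mrps5 (0.12), Mrps15 (0.51), Mrpl4 (0.67), Mrps26 (0.66), Mrpl19 (0.18), Mrpl21 (0.61), Mrpl38 (0.27) and Mrps16 (0.68) were then above 0. Of the 10 highest members, picked by their ratios in these data, 8 were called, where 33.4% of all tested genes were called higher. The medians of all genes moved to 0.42 and 0.89, and the members moved with them. With the deposited log ratios both ratios were above 0 for 10 members and below 0 for 26, where 28.6% and 30.9% of all tested genes were. With an offset of 0 there were 8 above and 23 below, where 30.1% and 28.4% were, so the even split of 17 and 17 changed with both of these choices. The cause was not tested. Among the lower members named, Mrpl38 moved from -0.20 to -0.33 with an offset of 0 and -0.36 in the deposited ratios, and Mrps15 from -0.23 to -0.32 and -0.35. Limma called 0 members with the deposited ratios, an offset of 0, both channels above background, no filter on dim probes, or a trended and robust prior, and also from channel levels with no replicate block, where the median was -0.02. The array itself pairs the samples, so the ratio is already the paired value. Without array 1 or array 2 in turn the median ran from -0.09 to 0.04, with no test on 1 array. The mean over a gene's probes gave 15 above and 20 below. With 1 residual degree of freedom, small differences could not be shown.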
